A study of Danio rerio with 3 samples.

Results

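Cells of 48 h old zebrafish larvae that were dissociated, sorted and then kept on ice for a further 30 min (the ice library) were compared with cells that were fixed right after sorting (the FACS library). The comparison drew on 14159 of the 25202 cells of the series, 9550 from the ice library and 4609 from the FACS library, chosen by their sample labels alone. Both libraries came from pools of 10 dechorionated wild-type larvae, which were dissociated at 37°C over 30 min in buffer that held 10 mM of the nucleoside 4-thiouridine (4sU), which enters newly made RNA in place of uridine. The cell suspension then stood on ice for about 15 min while the sorter was set up and was sorted for 10 min with a gate that removed only debris and the extremes of size and granularity. The sorted cells fell into a cooled tube that again held 10 mM 4sU and were washed, after which the cells of the FACS library went into methanol. The cells of the ice library were held in buffer without 4sU before methanol, so the labels set the libraries apart by the time on ice only. Whether the libraries came from 1 pool of larvae is not given in the sources used here, and each preparation was made once.

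Iodoacetamide (10 mM) was used to alkylate the 4sU of fixed cells, which makes reverse transcriptase pair it as a C, so RNA made during the preparation carries T-to-C substitutions. Heat shock chaperones such as those of the Hsp70 and Hsp90 families refold or stabilise proteins, and their genes are switched on within minutes by heat shock factor when proteins unfold. Immediate early genes such as fosab, jun and egr1 encode transcription factors that need no new protein for their induction, and both groups are known to respond to tissue dissociation. Cold slows transcription, translation and RNA decay alike, and for this reason cells are commonly placed on ice between the steps of a single-cell protocol.

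The ice library held 61231163 unique molecular identifiers (UMIs, tags that count RNA molecules) and the FACS library held 23095410. The median cell had 3995 UMIs in the ice library and 3143 in the FACS library. The authors' tables of reads per cell type held 204640932 reads for the ice library and 201080932 for the FACS library. At the median gene these reads came to 2.89 per UMI in the ice library and to 6.95 in the FACS library. The reads are those of the tabled cell types, 14 in the ice library and 15 in the FACS library, and the UMIs are those of all cells. The value is therefore only an approximate measure of how often a molecule was read. The libraries shared 12 cell barcodes. With 1 library each, no replicate error exists and no test was run, and the 95% intervals below (exact Poisson for UMI sums, exact conditional binomial for ratios of UMI sums, Clopper-Pearson for shares) cover counting error only.

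Tables for 14 cell types of the authors' annotation existed in both libraries, and the names of 3 of them did not match their markers in at least 1 library. Epidermal keratin markers such as krt4 and cyt1 summed to 196013 RPM (reads per 1000000 reads of the table) in the table named pharynx of the ice library and to 160558 RPM in that of the FACS library. The table named epidermis held 400.2 RPM of these markers in the ice library and 299 RPM in the FACS library, the ninth and the eighth of the tables. Markers of the pharynx were highest in the table named lateral line and olfactory organ in both libraries. Markers of the proliferative region were highest in the retina of the ice library, at 13300.1 RPM, and in the proliferative region itself in the FACS library, at 12661 RPM. Trunk muscle markers, which have no table of their own, were highest in the head muscle table in both libraries. Among the 14 shared tables, markers of the pharyngeal arch were highest in the proliferating pharyngeal arch in both libraries. The remaining marker lists were highest in their own table in both libraries. The tables are therefore called by the names that the authors gave them.

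Levels of most genes differed little between the libraries. UMIs of a gene over all cells were divided by the total of the library and given per 1000000 UMIs (CPM), and 4562 genes with at least 250 UMIs in both libraries were compared. A further 4074 genes reached this minimum in the ice library only and 8 in the FACS library only, 19572 were below it in both, and none of these entered the counts. Because the FACS library held fewer UMIs, the minimum stood at a higher CPM there. Genes of low level that were higher in the ice library could therefore be left out. The median gene had a ratio of 1.08 (ice over FACS), a shift of 0.12 on the log2 scale, and the middle 90% of genes lay between 0.826 and 1.47. A ratio of at least 1.5 was found for 196 genes (4.3% of those compared) and a ratio of at most 1/1.5 for 54 genes (1.18%), and 3634 genes were within 1.25-fold. The nearest genes on either side of the upper limit were pnn at 1.502 and ccnd2a at 1.4999. After division by the median ratio, 107 genes were higher and 86 lower, so the excess of higher over lower genes depended on the scaling.

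Sums over all cells cannot tell fewer cells of a type from less RNA per cell, so the ratio was also formed within each cell type, from RPM, and the median over types was taken. Of 2886 genes with at least 250 reads in both libraries in 3 or more of the 14 types, 124 were at least 1.5-fold higher (4.3%) and 31 at least 1.5-fold lower (1.07%), with a median of 1.06. Among the 119 genes that were 1.5-fold higher in CPM and could be followed within types, 65 were also 1.5-fold higher there and 116 were above 1. Of the 14 such genes that were lower in CPM, 0 were 1.5-fold lower within types and 12 were below 1.

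Of 26 heat shock and chaperone genes with enough UMIs, 3 were at least 1.5-fold higher in the ice library (4.3% of all genes were), 0 were lower (1.18% of all genes were), and the median ratio was 1.17, against 1.08 over all genes. The 3 were hsp90aa1.2, an inducible cytosolic Hsp90, hsp90ab1, the constitutive form, and dnajb1b, an Hsp40 that feeds substrates to Hsp70. Within cell types, 6 of 22 genes of the list were at least 1.5-fold higher and 0 lower, with a median of 1.19.

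The level of hsp90aa1.2 was 1077 CPM (1069 to 1085) in the ice library and 646 CPM (636 to 657) in the FACS library, a ratio of 1.67 (1.64 to 1.70). It was higher in 14 of 14 cell types, with ratios between 1.29 in the pectoral fins and 2.65 in the blood. The blood table was shifted as a whole, with a median ratio over its genes of 1.65. In the nervous system hsp90aa1.2 had 2203 RPM in the ice library against 1289.9 RPM in the FACS library, and in the blood it had 384 against 145 RPM. Its transcripts were found in 7985 cells of the ice library and 3524 of the FACS library, and the 5 richest cells held 0.943% of its UMIs in the ice library and 1.3% in the FACS library, so that the difference was spread over many cells.

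For dnajb1b, 567 CPM (561 to 573) were measured in the ice library and 357 CPM (350 to 365) in the FACS library, a ratio of 1.59 (1.55 to 1.63). It was higher in 14 of 14 types, between 1.02-fold in the pectoral fins and 2.28-fold in the retina. The level of hsp90ab1 was 3288 CPM in the ice library and 2160 CPM in the FACS library, a ratio of 1.52 (1.51 to 1.54), and it was higher in 13 of 14 types. After division by the median ratio of all genes hsp90ab1 stood at 1.40 and dnajb1b at 1.46, below the 1.5-fold limit, while hsp90aa1.2 stood at 1.54.

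The inducible Hsp70 genes, which respond strongly to heat, had ratios near 1 in CPM. The level of hsp70l was 1319 CPM (1310.0 to 1328) in the ice library against 1350 CPM (1335 to 1365) in the FACS library, a ratio of 0.977 (0.964 to 0.990), and hsp70.2 stood at 846 CPM in both. The ratios of hsp70.1 and hsp70.3 were 1.01 and 1.06. Within cell types their medians were 1.14 for hsp70l, 1.16 for hsp70.2, 1.25 for hsp70.1 and 1.21 for hsp70.3, and each was above 1 in 11 to 13 of 14 types. The ratio of hsp70l ranged from 0.874 in the pectoral fins to 1.71 in the table named pharynx.

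Some further chaperone genes had larger ratios within cell types than in CPM, and others had smaller ones. The Hsp90 co-chaperone fkbp4, an immunophilin, had a ratio of 1.41 in CPM and 1.73 within 3 types, and hspa4a, an Hsp110 that recharges Hsp70, had 1.2 and 1.59 within 6 types. The muscle-expressed hsp90aa1.1 had ratios of 1.12 and 1.63 within 3 types. The Hsp90 co-chaperones stip1 and ahsa1b had ratios of 1.23 and 1.27 in CPM, and of 1.36 and 1.47 within types, and the Hsp40 gene dnajb1a had 1.46 in CPM. The polyubiquitin gene ubb was below 1 in CPM, at 0.847, and at 1.02 within 12 types. Ratios were smaller within types than in CPM for hspd1 (1.11 against 1.28), hspb1 (1.16 against 1.22), hspe1 (1.07 against 1.11) and ubc (0.962 against 0.978). Over the list, the median within-type ratio was above 1 in 13 of 14 types and above the median of all genes of the same table in 12 of 14. This was not particular to chaperones. The list of cold-response genes was above 1 in 13 of 14 types and above the table median in 13. The RNA processing and reference lists were above 1 in 13 of 14 types, and above the table median in 10 and 8.

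**Figure D1:**
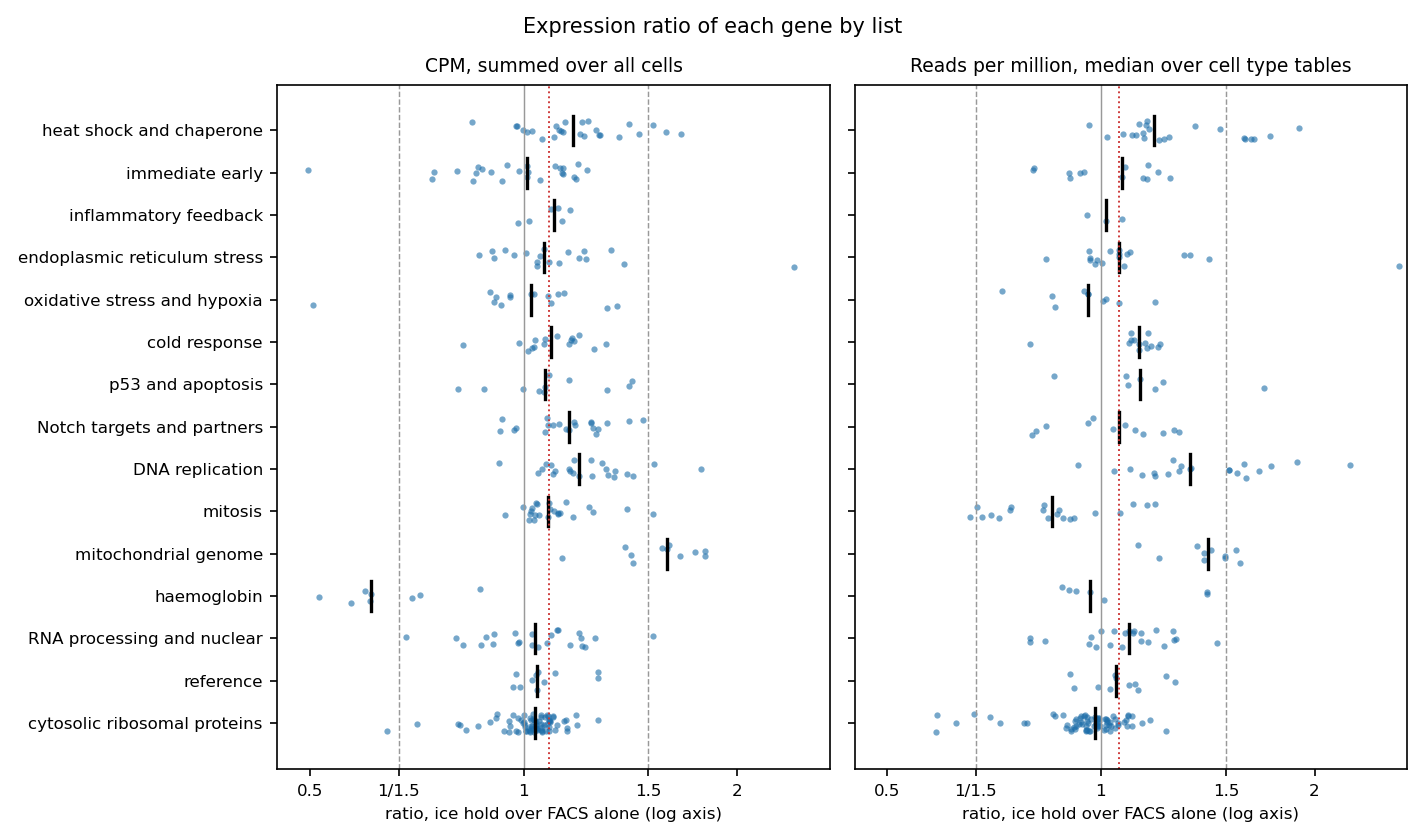
Ratio of each gene (ice library, named ice hold, over FACS library, named FACS alone, log axis), by gene list, as CPM over all cells on the left and as the median within cell types on the right. Each point is 1 gene, the black bar the median of the list and the red dotted line the median of all genes. Genes of the mitochondrial genome sit highest, at a median of 1.59 in CPM, and haemoglobin genes lowest, at 0.609.

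Of 25 immediate early genes 0 were at least 1.5-fold higher (4.3% of all genes were) and 1 was lower (1.18% of all genes were). Their median was 1.01, below that of all genes. The lower gene was egr1, a zinc finger factor, with 7.30 CPM (6.64 to 8.01) in the ice library and 14.7 CPM (13.2 to 16.3) in the FACS library, a ratio of 0.497 (0.431 to 0.574) that rested on 447 UMIs in the ice library and 339 in the FACS library. Without the 5 cells richest in egr1 in each library the ratio was 0.511. The AP-1 genes fosab and jun were both at 1.14, and jdp2b and ctgfa, an AP-1 partner and a matrix protein gene, were at 0.748 and 0.744. Only 13 of these genes could be followed within types, where their median was 1.07.

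Further stress programmes differed little in level. Of 19 genes of the endoplasmic reticulum stress list 1 was at least 1.5-fold higher (4.3% of all genes were). This gene was calr3b, a calreticulin that chaperones glycoproteins, with 39.6 CPM (38.0 to 41.2) in the ice library and 16.5 CPM (14.8 to 18.2) in the FACS library. Its ratio was 2.41 (2.16 to 2.69) in CPM and 2.63 within 4 types, and 2.52 without its 5 richest cells. The gene hspa5, which encodes the main Hsp70 of the endoplasmic reticulum, had a ratio of 0.969 and hsp90b1, its Hsp90, of 1.12. Apart from calr3b, the ratios of the list reached from 0.865 for canx to 1.39 for pdia3. Of the 19 genes 14 were above 1, with a median of 1.07. Cold-response genes had a median of 1.09 over 16 genes with 0 past 1.5-fold, and the cold-inducible RNA-binding protein genes cirbpa and cirbpb stood at 1.03 and 1.07. Within cell types 12 of 13 cold-response genes were above 1, with a median of 1.13 against 1.06 over all genes. In the p53 and apoptosis list 0 of 11 genes passed 1.5-fold in CPM. Within cell types 1 of 7 was at least 1.5-fold higher (4.3% of all genes were), parp1 at 1.70. In the inflammatory feedback list 5 of 6 genes were above 1 in CPM, with 0 past the limit. Among 15 oxidative stress and hypoxia genes 1 was at least 1.5-fold lower (1.18% of all genes were), hmox1a, which encodes the haem-degrading enzyme haem oxygenase. Its level of 5.85 CPM in the ice library against 11.6 CPM in the FACS library rested on 1 cell of the FACS library that held 184 of the 267 UMIs, and without the 5 richest cells of each library the ratio of 0.506 became 2.25.

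Transcripts of the mitochondrial genome, which encodes subunits of the respiratory chain, were higher in the ice library as a group. Of 11 mitochondrial genes 7 were at least 1.5-fold higher (4.3% of all genes were) and 11 were above 1, with a median of 1.59. After division by the median ratio of all genes 4 of 11 were at least 1.5-fold higher, and within cell types 2 of 10 were. The cytochrome b gene mt-cyb had 1478 CPM (1469 to 1488) in the ice library and 819 CPM (807 to 831) in the FACS library, a ratio of 1.80 (1.78 to 1.83), and mt-co2, a subunit of cytochrome oxidase, had 3786 CPM in the ice library and 2170 CPM in the FACS library, a ratio of 1.75. The smallest ratio of the list was that of mt-atp8, at 1.13. Within cell types the median of the list was 1.41. The gene mt-cyb was higher in 14 of 14 types, between 1.12-fold in the pectoral fins and 2.85-fold in the blood, where the median gene was at 1.65. The share of UMIs from mitochondrial genes was 1.13% in the ice library and 0.689% in the FACS library, and the share in the median cell was 1.08% against 0.621%. It was 1.88% in the third library of the series, dissociation without sorting, so the ice library lay between the other two. A high mitochondrial share is commonly read as a sign of damaged cells, whose part in these values was not tested.

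Haemoglobin transcripts, made by red blood cells, were lower in the ice library. The share of UMIs from haemoglobin genes was 6.68% in the ice library and 11.2% in the FACS library, and cells with at least 50% haemoglobin UMIs made up 4.54% (4.14 to 4.98) of the cells in the ice library and 6.16% (5.48 to 6.90) in the FACS library. This difference depended on the limit, since 253 cells of the ice library and 100 of the FACS library held between 40% and 60%, and cells with 10% or more made up 7.64% (7.12 to 8.20) in the ice library and 7.92% (7.16 to 8.74) in the FACS library. In cells with under 50% haemoglobin UMIs, haemoglobin took 2.07% of the UMIs in the ice library and 2.06% in the FACS library. Of 8 haemoglobin genes 5 were at least 1.5-fold lower (1.18% of all genes were) and 0 were higher. The lowest ratio was that of hbae1, at 14311 CPM in the ice library against 27769 CPM in the FACS library (ratio 0.515). In cells with under 10% haemoglobin UMIs the median ratio of the list was 1.01. Cells under 50% and under 10% were chosen by their haemoglobin share, so values of haemoglobin in them cannot show whether its level differed. Since CPM values share 1 total, the lower haemoglobin share raises every other gene, and per UMI of genes other than haemoglobin and mitochondrial genes 146 genes were at least 1.5-fold higher and 70 lower.

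Skeletal muscle genes made up 5 of the 10 largest ratios in CPM. Of 11 trunk muscle markers 9 were at least 1.5-fold higher (4.3% of all genes were), with a median of 2.12. The markers summed to 648 CPM in the ice library against 314 CPM in the FACS library, although no table for trunk muscle exists in either library. Fast troponin I (tnni2a.4, 2.48), the calcium buffer parvalbumin (pvalb1, 2.46), tropomyosin (tpma, 2.36), titin (ttn.2, 2.36) and a myosin light chain (mylz3, 2.28) were the 5. The head muscle table held 21329.5 RPM of the trunk muscle markers in the ice library and 6543 RPM in the FACS library. These transcripts sat in few cells. The 5 richest cells held 75.1% of the pvalb1 UMIs in the ice library and 41.5% in the FACS library, and without them its ratio was 1.05. Without the 5 richest cells the ratios of tnni2a.4, tpma and mylz3 were 1.97, 1.66 and 2.06, and that of ttn.2 was larger, at 2.96. The other genes among the 10 were zgc:109934 at 2.68, the hair cell parvalbumin pvalb8 at 2.47, calr3b at 2.41, the chromatin protein gene hmga2 at 2.38 and si:ch211-196c10.15 at 2.30.

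Several of the lowest ratios belonged to genes whose UMIs sat in few cells. Lens crystallin genes crybb1 and cryba4 had ratios of 0.314 and 0.375, and zgc:153704 and capsla had 0.283 and 0.322. For crybb1, 338 of the 389 UMIs in the FACS library came from 1 cell, against 148 of 324 UMIs from the richest cell in the ice library. Without the 5 richest cells in each library the ratios were 1.01 for crybb1, 0.837 for cryba4, 1.01 for zgc:153704 and 1.07 for capsla. With this change 29 of the 54 lower genes stayed at least 1.5-fold lower and 6 went above 1, while 194 of the 196 higher genes stayed at least 1.5-fold higher. Leaving out 5 cells takes a larger part of the smaller FACS library, and the median ratio of all genes rose from 1.08 to 1.11. How many higher and how many lower genes stayed can therefore not be compared directly. Somatostatin (sst1.1), a peptide hormone gene, moved in the same way to 0.719, against 0.462 with all cells. The lower ratios of ms4a17a.9 (0.363 without those cells) and RF01290 (8341 UMIs in 5026 cells of the ice library and 7755 in 3359 cells of the FACS library, ratio 0.406) did not depend on few cells. The same held for the remaining genes of the 10 lowest. With all cells and without the 5 richest, si:ch211-130h14.6 had ratios of 0.379 and 0.384, NDUFB1 0.392 and 0.394, and adgre10 0.452 and 0.456. Within cell types RF01290 and NDUFB1 stood closer to 1, at 0.718 and 0.680, and did not pass the 1.5-fold limit. The genes ms4a17a.9, si:ch211-130h14.6 and adgre10 could not be followed within types.

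**Figure D2:**
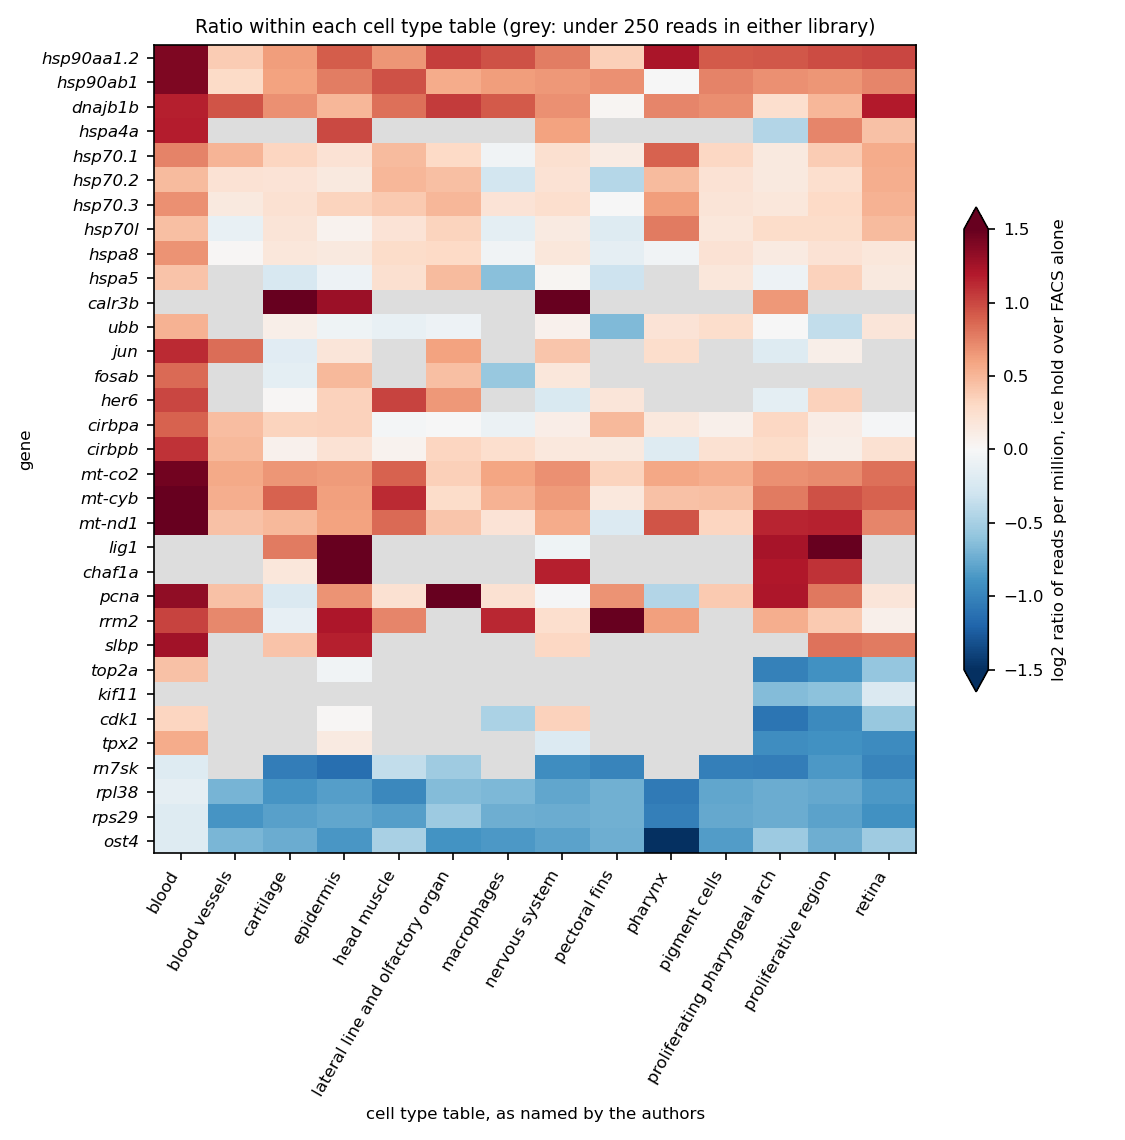
Ratio of RPM (log2, ice hold over FACS alone, red for higher with ice) of named genes in each of the 14 cell type tables, with grey for genes under 250 reads in either library. The row of hsp90aa1.2 is red in 14 of 14 tables, that of rn7sk is blue in 11 of 11, and replication genes such as pcna and mitosis genes such as top2a differ in colour in the proliferating pharyngeal arch and the proliferative region.

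The blood table differed from the others as a whole. Its median gene was 1.65-fold higher, while the median ratio of the other 13 tables lay between 0.886 and 1.08, and 63.8% of its 1544 genes were at least 1.5-fold higher. Haemoglobin took 58.3% of its reads in the ice library and 63.4% in the FACS library. The table held 15.5% of all table reads in the ice library and 23.2% in the FACS library. Haemoglobin reads in other tables went in both directions, as they took 2.69% of the head muscle reads in the ice library against 0.245% in the FACS library, and 1.21% of the nervous system reads against 4.03%. The mitochondrial share of reads was higher in 14 of 14 tables, with ratios between 1.15 and 2.68.

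Genes of DNA replication and genes of mitosis differed in opposite directions within 2 tables of dividing cells. Over all cells the 23 replication genes had a median ratio of 1.2 and the 24 mitosis genes 1.08. Of these, 2 and 1 genes were at least 1.5-fold higher, where 4.3% of all genes were. The 2 replication genes were chaf1a, a subunit of the factor that loads histones onto new DNA, and gins1, a part of the replicative helicase, with ratios of 1.78 and 1.53, and the mitosis gene was dlgap5, a spindle protein gene, with 1.52. In the proliferative region, 18 of 22 replication genes were at least 1.5-fold higher and 18 of 27 mitosis genes at least 1.5-fold lower, with medians of 1.71 and 0.585. Here 9.08% of all genes were at least 1.5-fold higher and 7.42% lower. In the proliferating pharyngeal arch, 6 of 8 replication genes were higher and 21 of 25 mitosis genes lower, with medians of 1.96 and 0.527, where 7.51% of all genes were higher and 11.9% lower.

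In the proliferative region the helicase subunit mcm6 had 59.3 RPM in the ice library and 21.1 RPM in the FACS library, and the sliding clamp pcna had 1002 against 577 RPM. The mitotic kinase cdk1 had 157 against 304 RPM there, and ube2c, which marks cyclins for destruction, had 392 against 719 RPM. In the proliferating pharyngeal arch pcna had 685 RPM in the ice library and 297 RPM in the FACS library, and top2a, which untangles chromosomes, had 124 against 250 RPM. In other tables replication and mitosis medians were 1.08 and 1.08 in the nervous system, 0.972 and 1.04 in the cartilage and 1.35 and 1.1 in the table named epidermis. In the retina they were 1.23 and 0.802. In the blood they were 2.27 and 1.36, on either side of the table's median of 1.65.

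The reads were not divided over these tables in the same way in both libraries. The proliferating pharyngeal arch and the proliferative region held 9.92% and 15.9% of the table reads in the ice library, against 3.45% and 8.95% in the FACS library. In addition the FACS library had a separate table for the pharyngeal arch with 10.5% of its reads. Which cells were placed in these tables and a difference in the same cells cannot be told apart. Leaving both tables out, 105 genes were at least 1.5-fold higher and 14 at least 1.5-fold lower within types.

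**Figure D3:**
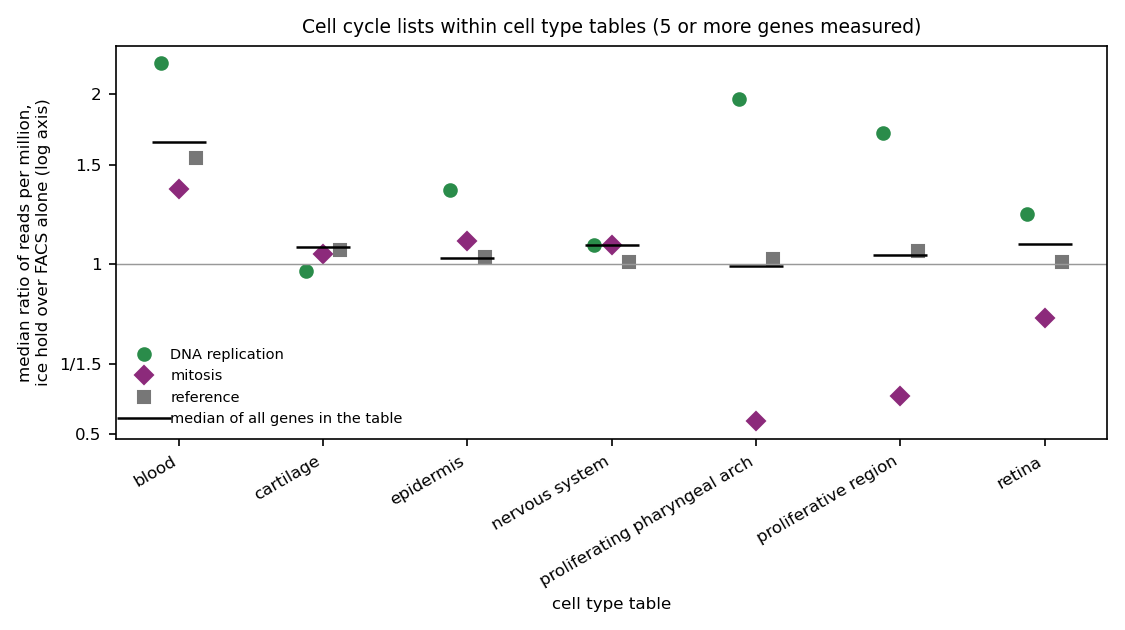
Median ratio (ice hold over FACS alone, log axis) of DNA replication genes (circles), mitosis genes (diamonds) and reference genes (squares) in each cell type table with 5 or more genes of each list, with a bar at the median of all genes of the table. Replication and mitosis genes lie on opposite sides of 1 in the proliferating pharyngeal arch (1.96 and 0.527) and the proliferative region (1.71 and 0.585).

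The lowest ratios within cell types included a small nuclear RNA and 4 ribosomal protein genes. The gene rn7sk, whose RNA holds back transcription elongation, had a median ratio of 0.504 and was lower in 11 of 11 types. The ribosomal protein genes rpl38, rps29, rpl29 and rpl37 had medians of 0.586, 0.587, 0.626 and 0.663, and each was lower in 14 of 14 types. In CPM, where each molecule counts once, their ratios were 0.813, 0.807, 0.707 and 0.830, and that of rn7sk was 0.705. Among 77 ribosomal protein genes as a whole the median was 1.04 in CPM and 0.980 within types. Within types 0 of the 77 were at least 1.5-fold higher and 4 lower, where 1.07% of all genes were lower. The remaining genes of the 10 with the lowest ratios within at least 5 types were ost4, cks2, s100v2, ATP5MD and ndufa3. In CPM these stood closer to 1, at 0.786, 0.895, 0.857, 0.871 and 0.873. Reads within types depend on how often each molecule was read. The approximate measure of this at the median gene was 2.89 reads per UMI in the ice library and 6.95 in the FACS library. The part of this difference in these ratios was not tested.

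The largest ratio within at least 5 types was that of the replicative DNA ligase gene lig1, with a median of 2.35 over 5 types. Among the 10 largest, chaf1a had 2.24, and the histone chaperone nap1l1 and the chromatin reader psip1b had 1.82 over 6 types and 1.83 over 5. For nap1l1 the CPM ratio was 2.05, with 68.6 CPM in the ice library and 33.5 CPM in the FACS library. The keratin krt91 (2.25), zgc:110540, hsp90aa1.2 (1.90), the signal peptidase subunit spcs2 (1.83), BX465834.1 and the small nucleolar ribonucleoprotein gene nop56 (1.75) completed the 10. Of these, 4 were below the 1.5-fold limit in CPM, namely krt91 at 1.14, zgc:110540 at 1.18, BX465834.1 at 1.02 and nop56 at 1.44. Within types krt91 reached 4.48 in the table named pharynx, where other keratins mark the cells.

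Transcripts carried slightly more T-to-C substitutions after the time on ice. In each table the T-to-C rate of a gene is the share of T positions read as C, and its median, taken over genes that had 250 reads or more in both libraries, was higher in the ice library in 14 of 14 types. This was not particular to T-to-C, since 7 other substitutions were higher in 14 of 14 types as well, A-to-T and T-to-A in 13, A-to-G in 11 and C-to-T in 7. In the nervous system it was 0.271% in the ice library and 0.211% in the FACS library, and in the proliferating pharyngeal arch, which had the largest ratio, 0.145% against 0.104%. Ratios lay between 1.11 in the blood vessels and 1.39, with a median of 1.28. The A-to-G rate, which 4sU does not change and which serves as background, had ratios between 0.970 and 1.15. Weighted by reads, so that abundant genes count more, the T-to-C ratios were smaller, between 1.02 and 1.14, and still above 1 in 14 of 14 types.

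Over all tables the read-weighted T-to-C rate was 0.324% in the ice library and 0.296% in the FACS library, a difference of 0.0284 percentage points and the largest positive one among the 12 substitution types. The read-weighted A-to-G rate was 0.185% in the ice library and 0.187% in the FACS library. As a ratio, T-to-C (1.1) was not the largest, since the rare C-to-G and T-to-G substitutions had ratios of 1.13 and 1.14 and G-to-C one of 0.657. Counted over 25700 pairs of a gene and a type, T-to-C was higher in the ice library in 62.7% of the pairs, and the other substitutions in 50.9% to 59.8%. Within single tables the T-to-C share was the largest in 10 of 14, and in the blood vessels, head muscle, lateral line and olfactory organ and pigment cells another substitution was higher in more genes. By gene, 2064 of 2886 genes had a T-to-C difference above 0 at the median over types (71.5%), and 59.1% had such an A-to-G difference.

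**Figure D4:**
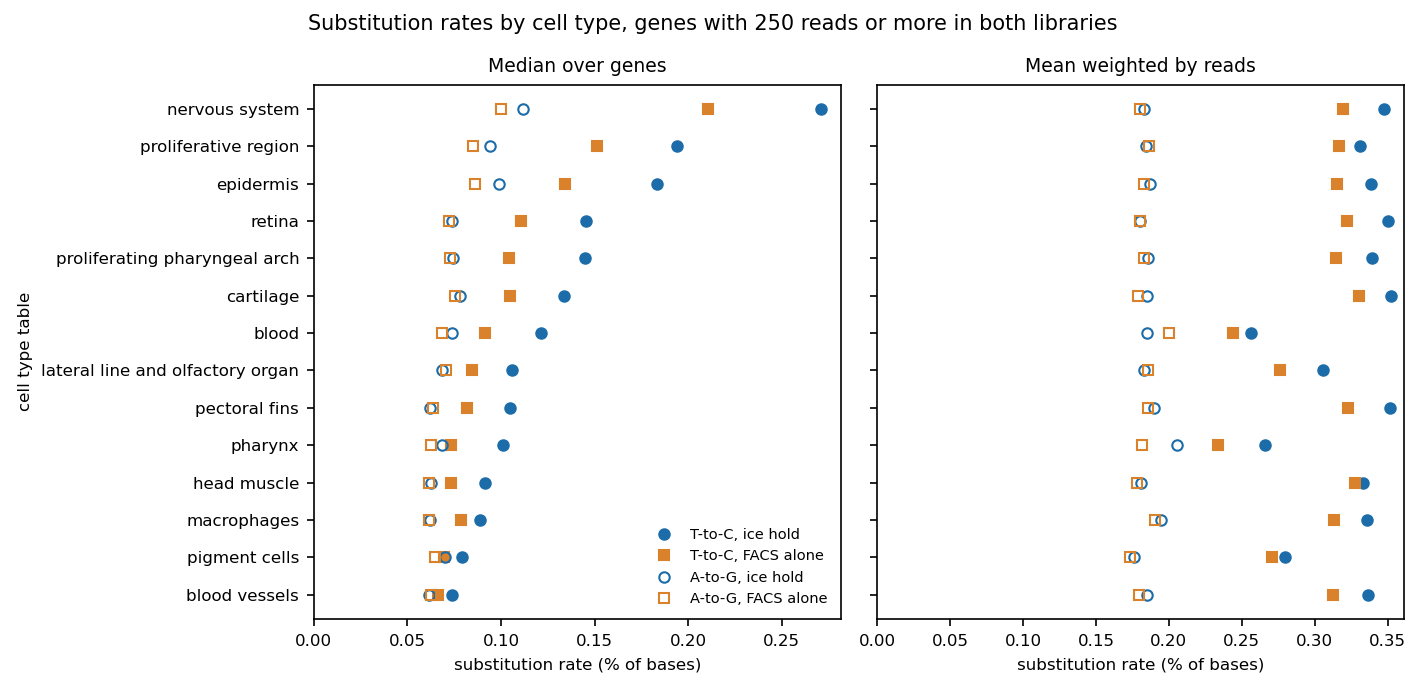
T-to-C (filled) and A-to-G (open) rates in percent of bases by cell type table in the ice library (blue circles) and the FACS library (orange squares), as the median over genes on the left and the mean weighted by reads on the right. On the left the T-to-C rate of the ice library lies above that of the FACS library in 14 of 14 tables, with ratios between 1.11 and 1.39, and the A-to-G ratios lie between 0.970 and 1.15.

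The genes with the largest differences in T-to-C rate were chaperones, Notch targets and fosab, several of which are on the study's own list of highly labelled genes, which was taken from the ice library and is therefore no independent evidence. For hsp90aa1.2 the median rate over 14 types was 4.44% in the ice library and 3.29% in the FACS library, and it was higher in 13 of 14 types, pigment cells being the exception. In the cartilage the rate of hsp90aa1.2 was 5.34% against 3.25%, and in the nervous system it was 3.82% against 2.75%. For hspa4a it was 2.35% against 1.66%, higher in 6 of 6 types, and for dnajb1b 3.54% against 3.13%, higher in 11 of 14. These chaperone transcripts were thus both more abundant and more often substituted in the ice library.

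Of the Hsp70 genes, hsp70l and hsp70.3 did not show a gap of this size. The median rate of hsp70l was 3.02% in the ice library and 2.98% in the FACS library, higher in 8 of 14 types, and that of hsp70.3 was 1.98% against 1.97%. The constitutive hsp90ab1, although higher in level, had a rate of 0.122% in the ice library and 0.127% in the FACS library, and was higher in 7 of 14 types. The ribosomal protein gene rpl37 went the other way, at 0.456% in the ice library and 0.534% in the FACS library, higher in 0 of 14 types. Among 22 chaperone genes 19 had a median difference above 0, against 71.5% of all genes.

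Notch signalling passes between neighbouring cells and switches on the hairy-related her and hey genes, whose transcripts are short-lived. Of 12 genes of the Notch list 12 had a T-to-C difference above 0 (71.5% of all genes), and the median rate of the list was 3.03% in the ice library and 2.38% in the FACS library. The rate of her6 was 4.31% in the ice library and 3.14% in the FACS library, higher in 7 of 9 types. The rate of her12 was 2.63% against 1.74%, that of her4.1 3.08% against 2.33%, and that of hey1 6.16% against 4.97%, the last in only 2 of 4 types. In level these genes differed by less than 1.5-fold, with ratios of 1.16 for her6, 1.15 for her12, 1.07 for her4.1 and 1.41 for hey1. For fosab the rate was 3.94% in the ice library and 3.24% in the FACS library, higher in 6 of 6 types.

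In the endoplasmic reticulum, the chaperone genes hspa5 and hsp90b1 were within 1.25-fold in CPM and had T-to-C rates of 1.32% against 0.978% (11 of 12 types higher) and 0.934% against 0.380% (9 of 10 types higher). The endoplasmic reticulum stress list as a whole did not share this, as 12 of its 18 genes had a difference above 0 (71.5% of all genes did). Its median rate was 0.407% in the ice library and 0.436% in the FACS library. The gene fth1a, which encodes a subunit of the iron store ferritin, had a rate of 0.492% in the ice library and 0.192% in the FACS library, higher in 14 of 14 types, at a level ratio of 0.896. The libraries were pools of larvae and no filter on sequence variants is stated for the single-cell tables, and the part of variants in these rates was not tested. Of 13 cold-response genes 13 had a difference above 0 (71.5% of all genes did). Their rates were low, with a median of 0.134% in the ice library against 0.0928% in the FACS library. With reads pooled over types, 9 of the 13 were higher in the ice library, where 69.1% of all genes were. The pooled median of the list was 0.131% in the ice library and 0.135% in the FACS library. The rate of mt-cyb was higher in 14 of 14 types, by a small margin of 0.818% against 0.726%. The largest differences in the other direction were those of pcolcea (1.16% against 2.48%), kdm2ba, pim1, zgc:153405 and hexim1, each over 3 types.

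**Figure D5:**
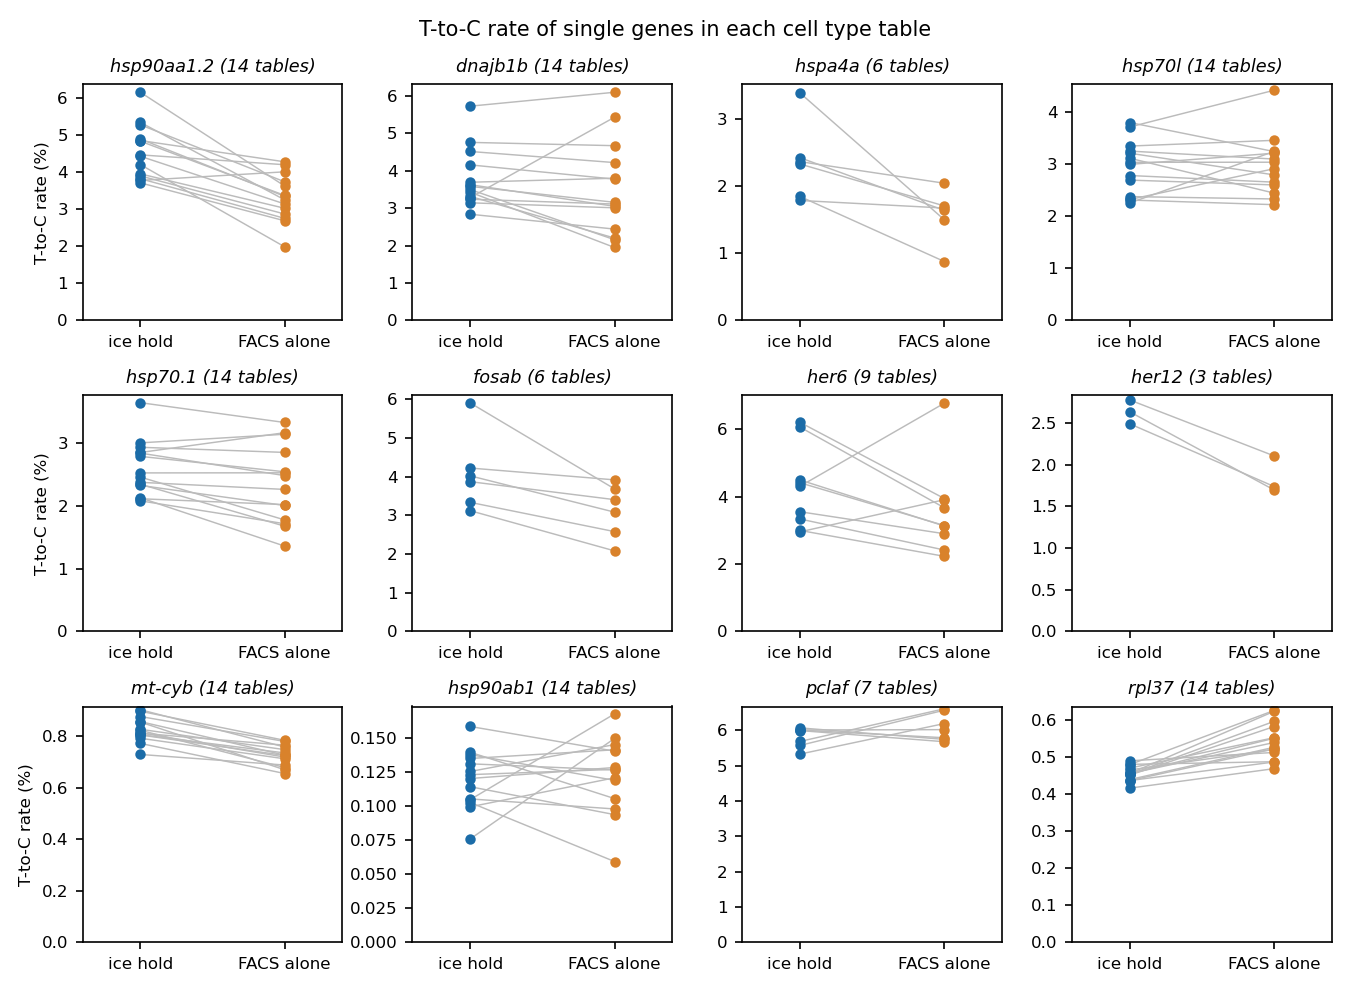
T-to-C rate (percent) of 12 genes in the ice library (ice hold) and the FACS library (FACS alone), with 1 point for each cell type table and lines joining the same table. For hsp90aa1.2 the ice library is higher in 13 of 14 tables (medians 4.44% and 3.29%), and for hsp70l in 8 of 14 (3.02% and 2.98%).

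The lists of labelled genes per cell gave a similar, small difference. A gene in a cell counted as labelled where at least 1 UMI carried 2 or more T-to-C substitutions, and this held for 473235 of 11477969 detections in the ice library, or 4.12% (4.11 to 4.13), and for 165907 of 4449291 in the FACS library, or 3.73% (3.71 to 3.75), a ratio of 1.11 (1.1 to 1.11). Without haemoglobin genes the ratio was 1.12. Because a gene with more UMIs in a cell has more chances to be labelled, detections with exactly 1 UMI were also compared, and the share was 2.49% in the ice library and 2.23% in the FACS library, again a ratio of 1.11. The median cell had 3.79% labelled detections in the ice library and 3.58% in the FACS library. At the median gene the approximate number of reads per UMI was 2.89 in the ice library and 6.95 in the FACS library. The part of this difference in the labelled shares was not tested.

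The difference was reversed in the class of cells with the fewest genes. In cells with 200 to 500 genes, 3.09% (3.05 to 3.14) of detections were labelled in the ice library and 3.48% (3.41 to 3.54) in the FACS library. The ratio was 0.890 (0.869 to 0.911). In the classes from 500 to 5000 genes the ratio lay between 1.06 and 1.09, at 5.18% against 4.74% in cells with 3000 to 5000 genes.

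Chaperone genes differed among themselves in labelled cells. The share of cells with a labelled transcript was higher in the ice library for 22 of 26 genes of the list, against 3063 of 4562 of all genes. The median share over the list was 15.09% in the ice library and 16.99% in the FACS library. With exactly 1 UMI the share was higher in the ice library for 13 of 26, against 2629 of 4562 of all genes. Of the cells with hsp90aa1.2 transcripts 71.1% held a labelled one in the ice library and 52.1% in the FACS library, and with exactly 1 UMI 29.6% did in the ice library and 24.5% in the FACS library. For dnajb1b the shares were 58.2% in the ice library and 42.1% in the FACS library, and 25.7% against 24.7% with exactly 1 UMI, a smaller gap than over all cells. For hsp70l 78.9% of the cells with its transcripts were labelled in the ice library and 80.5% in the FACS library. For egr1, an immediate early gene that was lower in level in the ice library, the shares were 39.8% against 41.5%. Its list went the other way, since 20 of 25 immediate early genes had a higher share in the ice library. With exactly 1 UMI 20 of 25 did as well.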

How the data were processed

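Single-cell RNA-seq libraries of 48 h old zebrafish larvae were compared, 1 per group, with groups taken from the sample labels. The authors processed the reads with bcl2fastq 2.19, Cell Ranger 6.1.1 and SAMtools 1.14, per the submitters' processing notes, on the GRCz10 build, and deposited UMI counts per gene and cell. The authors also deposited, for each cell, counts of genes found and of labelled genes, those with a UMI in which T was read as C 2 or more times, and, for each cell type, a count of reads and the substitution rates of each gene as a fraction, at a base quality of at least 20. A filter on sequence variants is stated for bulk data only. Rates are printed as percent.

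Identifiers with the same symbol were added up, and their UMIs were divided by the library total. Within cell types, reads were scaled to the total of the table, since tables were summed by the authors, and the median over types was taken. A gene was called higher or lower past 1.5-fold. Ratios of labelled shares have intervals from a normal approximation on the log scale. No doublet caller was run, and sums without the 5% of cells with most UMIs were computed as an alternative. Names joining several genes were left out. Genes in the text were the list members past 1.5-fold with up to 4 others per list, the 10 largest and 10 smallest ratios in CPM and within at least 5 types, the 10 largest and 5 smallest T-to-C differences, and the 3 extremes of each type. The genes pnn, ccnd2a, gnrh3 and npffl, further genes given beside a list and the cell cycle genes given by table were chosen after their values were seen. Haemoglobin, mitochondrial, cell cycle, stress, Notch, reference and marker lists, and the comparison itself, were chosen with earlier results of these data known. Python 3.11.15, numpy 2.4.6, pandas 2.3.3, scipy 1.17.1 and matplotlib 3.10.9 were used, and the scripts were tested on simulated data. The dissociation library served as context only. No replicates exist, so depth (61231163 UMIs in the ice library and 23095410 in the FACS library) sets counting error alone.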

Additional observations from a re-analysis of the deposited data

Results flagged for a closer look

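Reads of 8 of 7369 genes were at least 2-fold higher in the ice library in 2 or more cell type tables and at least 2-fold lower in 2 or more others, and these differences between tables were not tested. Of the 8, 5 are haemoglobin genes. In the head muscle hbae1, hbae1.3, hbae3 and hbbe1.2 had ratios of 13.16, 11.18, 12.15 and 9.527, against 0.2962, 0.2827, 0.26 and 0.3348 in the nervous system. The embryonic globin gene hbbe3 was at 12.7 in the head muscle and at 0.4517 in the retina. The gene AL935210.1 followed the same tables, at 10.66 in the head muscle and 0.3004 in the nervous system. Fatty acid binding protein genes made up the rest. For fabp7a, a marker of radial glia in the brain, 1099 RPM in the ice library against 149 RPM in the FACS library were found in the pectoral fins, a ratio of 7.361, and the ratio was 0.3794 in the table named pharynx. For fabp11a the ratio was 3.528 in the cartilage and 0.335 in the proliferating pharyngeal arch.

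The list of labelled genes of the FACS library also held 1182743 barcodes outside its list of cells, with 4.66 genes per barcode, and the list of the ice library held 0. In these barcodes 147957 of 5511537 gene detections were labelled, or 2.684% (2.67 to 2.70), against 3.73% in the cells of the FACS library.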

How the results depend on the processing

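The counts of 196 higher and 54 lower genes in CPM kept more higher than lower genes under each alternative run, but moved with the scaling. Counts of higher and lower genes were 107 and 86 after division by the median ratio (55.4% of the genes past 1.5-fold were higher, against 78.4%), 495 and 127 with a minimum of 100 UMIs, 33 and 24 with 1000 UMIs, 97 and 57 without the 5% of cells with most UMIs, 124 and 31 as the median within types, and 30 and 15 at 2-fold. With each cell scaled to the same total they were 136 and 79. Alternatives chosen after seeing the data gave 107 and 64 in cells under 10% haemoglobin UMIs, and 273 and 29 without the 5 cells richest in each gene. Within types, the counts of 124 and 31 became 325 and 98 with 100 reads, and 22 and 14 with 1000 reads. They were 108 and 41 without the blood table, and 105 and 14 without the proliferating pharyngeal arch and the proliferative region. With each table divided by its median they were 75 and 54. These alternatives within types were also chosen after seeing the data. The T-to-C ratio of 1.28 was 1.41 with a minimum of 100 reads, 1.08 weighted by reads, 1.13 as a ratio per gene and 1.98 after subtraction of the A-to-G rate, above 1 in 14 of 14 types each time. The labelled share ratio of 1.11 was 1.12 without haemoglobin genes, 1.11 for single UMIs, 1.06 as the median per cell and 1.21 as the median over genes.

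Among lists and named genes past 1.5-fold, the ratios that crossed 1 were those of the haemoglobin list (1.01), hbae3 (1.07), hbbe1.2 (1.01) and hbbe2 (1.01) in haemoglobin-poor cells, of crybb1 (2.60) and cryba4 (2.12) with each cell scaled alike, of dlgap5 (0.980), hbbe2 (1.01), rpl26 (1.03) and zgc:153405 (0.894) within types, and of capsla (1.07), crybb1 (1.01), hmox1a (2.25) and zgc:153704 (1.01) without the 5 richest cells. Haemoglobin-poor cells were chosen by their haemoglobin share, so the ratios of haemoglobin genes in them cannot show whether levels differed. Apart from the 4 genes without the 5 richest cells, which rest on few cells, the cause was not tested. The ratio of hsp90aa1.2 lay between 1.43 and 1.90 over the alternatives and that of hsp70l between 0.881 and 1.14, and smaller ratios crossed 1 as well, among them those of hbbe1.1 (0.696, and 1.15 to 1.41 under 4 alternatives) and hbbe3 (0.868, and 1.14 to 1.41), and the medians of the mitosis list (1.08, and 0.854 within types) and the endoplasmic reticulum stress list (1.07, and 0.986 after division by the median ratio). No paired analysis was possible because each group had 1 library.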

Other observations

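Genes with fewer than 250 UMIs in the ice library were outside the comparison, and 8 of them passed this minimum in the FACS library. They include neuropeptide genes that came from single cells. Of the 1101 UMIs of gnrh3, which encodes a gonadotropin-releasing hormone, 1089 came from 1 cell of the FACS library, and the ice library held 29 UMIs. For npffl, a neuropeptide gene, 367 of 392 UMIs came from 1 cell of the FACS library, and the ice library held 29 UMIs in 29 cells.

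Several cell types had single genes far from the rest. In macrophages the cathepsin ctsba, a lysosomal protease, had 261 RPM in the ice library and 801 RPM in the FACS library, while BX649485.2 had 981 against 267 RPM. Water channel genes of the blood vessels were lower, with 300.4 RPM of aqp8a.1 in the ice library against 1251 RPM in the FACS library and 846 against 2199 RPM of aqp1a.1. The value of aqp8a.1 rested on few cells. Over all cells, 274 of its 284 UMIs in the FACS library came from 1 cell. In the ice library its 5 richest cells held 81.8% of 165 UMIs. In the cartilage the collagen gene col9a1b had 263 RPM in the ice library and 37.7 RPM in the FACS library, and agr2, an endoplasmic reticulum protein of secretory cells, had 30.9 against 310.0 RPM. In pigment cells krt4 had 148 RPM in the ice library against 828 RPM in the FACS library, and the melanin synthesis gene tyrp1b had 245 against 103 RPM. The myelin gene mbpb had 37.0 RPM in the nervous system of the ice library and 9.58 RPM in that of the FACS library. In the proliferative region pfn1, which binds actin monomers, had 46.0 RPM in the ice library and 314 RPM in the FACS library. Macrophage markers as a whole summed to 573 CPM in the ice library and 347 CPM in the FACS library, while of the 4 with enough UMIs 2 were at least 1.5-fold higher and 1 at least 1.5-fold lower. Lateral line markers summed to 182 CPM in the ice library and 105 CPM in the FACS library, but their median ratio was 1.02, and 1 of 5, pvalb8, was at least 1.5-fold higher, with 34.1% of its UMIs in the ice library and 46.4% in the FACS library held by 5 cells.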
